A study of Mus musculus with 278 samples.

Results

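The genes described here are the 62 histone modifiers and chromatin readers whose symbol begins with Kdm, Kmt, Setd, Hdac, Baz, Brd, Chd or Kat and continues with a number, out of 14145 genes in a table of single-cell expression. The rule used the symbol alone and no measured value. The cells came from cultures of adult mouse dorsal skin keratinocytes, in which 9 parts WT cells were mixed with 1 part K14ΔNβ-cateninER cells. The latter carry a beta-catenin lacking its N-terminal destruction signal and joined to the oestrogen receptor, driven by the keratin 14 promoter of basal keratinocytes, so that the drug 4-hydroxy-tamoxifen (4OHT) can switch on Wnt/beta-catenin signalling in them. Treated co-cultures received 200 nM 4OHT for 24 h and untreated co-cultures received the solvent DMSO, and both contained the transgenic cells, which could not be told apart from their WT neighbours here. Strain, sex and age beyond adult were not given in the sources used here. The values are TPM, a relative transcript abundance that is corrected for transcript length and sums to 1000000 in every cell.

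Histones carry acetyl and methyl groups that help to set which genes can be read. Kat enzymes add acetyl groups and Hdac enzymes remove them, Kmt and Setd enzymes add methyl groups to lysines and Kdm enzymes remove them. Brd and Baz proteins hold bromodomains, which bind acetylated lysine, and Chd proteins are ATP-driven remodellers that move nucleosomes. In epidermis such factors are known for keeping basal cells from differentiating too early and for opening the differentiation genes later.

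The 270 cells analysed fell into 4 library sets named after their library series and treatment label. These were AG untreated (66 cells), AG treated (64 cells), GHA501A untreated (71 cells) and GHA501A treated (69 cells). Another 8 AG cells, 5 labelled treated and 3 labelled untreated, had a library name that contradicted the treatment label and were left out. The 4 sets were taken as the replicates, 2 for each condition, since cells of 1 set share their treatment and library series and are not replicates. Nothing in the labels says that the sets came from separate animals, so p-values measure only the spread between these sets. In GHA501A the library numbers 1 to 95 were all treated and 98 to 192 all untreated, and in AG each treatment had its own library name, so treatment and library numbering or name cannot be told apart within a series.

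The labelled cell type was checked before the members were compared. Against 13 keratinocyte and 10 fibroblast markers, all but 2 of 130 AG cells scored higher for keratinocyte genes, but only 21 of 140 GHA501A cells did. The other 119 GHA501A cells scored higher for fibroblast genes, and 4 cells in all lay within 1 log2 unit of the border. Median TPM of Krt5, a basal keratin, was 1596 and 1474 in AG untreated and treated cells but 0 and 6.79 in GHA501A, whereas Col1a1, a fibroblast collagen, had a median of 0 and 0 in AG and of 1123 and 909 in GHA501A. Of the other marker lists, the endothelial genes Kdr and Tie1, the melanocyte gene Mlana and the immune gene Cd52 were over 1 TPM in under 5% of the cells of every set. Other genes of these lists were widely detected. The melanocyte genes Tyr and Pmel were over 1 TPM in 100%, 100%, 92.96% and 95.7% and in 68.2%, 82.8%, 36.6% and 44.9% of AG untreated, AG treated, GHA501A untreated and GHA501A treated cells. The immune gene Lyz2 was over 1 TPM in 68.2%, 76.6%, 85.9% and 85.5% and the smooth muscle gene Acta2 in 84.8%, 92.2%, 70.4% and 53.6% of these cells. The part of these genes in the results was not tested. Cycling genes were also higher in GHA501A, with a mean score over 16 genes of 2.94 and 2.90 in AG untreated and treated cells and of 4.81 and 4.58 in GHA501A. The series therefore differed in marker content as well as in their library names, and the part of cell type in the series differences below cannot be told apart from that of the series except where keratinocyte-marker cells are given alone.

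A further property of the table touched the members. Several genes that every cell uses were listed at or near 0 in AG. Rps24, a ribosomal protein gene, was over 1 TPM in 4.62% of AG cells and in 100% of GHA501A cells, while Rplp0, another ribosomal protein gene, was over 1 TPM in 100% of the cells of both. In all, 959 of 12355 genes (7.76%) were over 1 TPM in at most 10% of AG cells and in at least 30% of GHA501A cells, and 388 (3.14%) showed the reverse. Of these 959 genes, 824 were also over 1 TPM in at least 30% of the 21 GHA501A cells with keratinocyte markers. Among the members 9 of 61 (14.8%) were of the first kind, and 0 of the second. They were Brd3, Hdac7, Kdm2b, Kdm4c and 5 of the 7 Kat genes (Kat2b, Kat5, Kat6b, Kat7 and Kat14), a limit chosen after their values were seen. A zero of this kind can be a failed estimate, so these 9 genes are given as values and without a fold. Of the 9, 5 share exon bases with another annotated gene, as do 23 of the other 53 members, and the part of such overlaps in these values was not tested.

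Most members were expressed at moderate levels and in most cells. Of the 62, 61 passed the filter of TPM over 1 in more than 5 cells. The exception was Kdm4d, a histone demethylase with TPM over 1 in 3 of 64 AG treated cells and 1 of 71 GHA501A untreated cells and in 0 cells of the other sets. The level of a gene in a set is given as log2(mean TPM + 1). The median member level was 4.54 in AG untreated, 4.29 in AG treated, 4.28 in GHA501A untreated and 4.49 in GHA501A treated cells. Over all 12355 genes kept it was 3.75, 3.48, 3.81 and 3.96, lower than that of the members in each set. A median member was over 1 TPM in 84.8%, 89.1%, 73.2% and 71.01% of the cells of these sets, against 46.97%, 50%, 50.7% and 47.8% for the median gene. Kmt2e, a Kmt2 family member known as a cell cycle regulator, was over 1 TPM in each of the 270 cells, and 9 members were over 1 TPM in more than 90% of the cells of all sets. In addition to Kmt2e these were Kdm6b, Kdm5a, Kdm2a, Kmt2d, Baz1a, Baz1b, Brd8 and Chd1. At the other end Kdm4a, Kdm4d, Kdm8, Hdac8, Hdac11 and Setd6 stayed under 30% of the cells in every set.

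**Figure D1:**
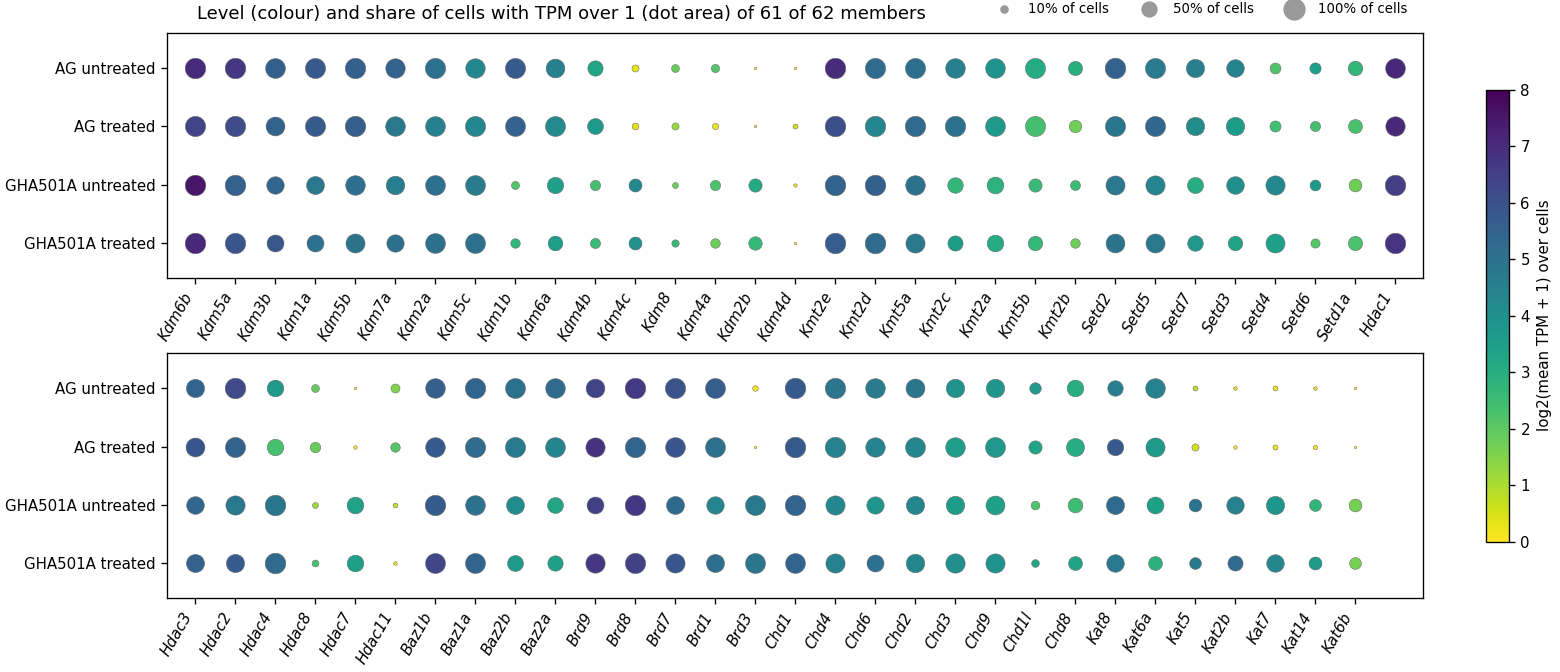
Level and detection of 61 of the 62 members (columns, ordered by family and by mean level within it) in the 4 library sets (rows). Colour gives log2(mean TPM + 1) over the cells of a set and dot area the percentage of cells with TPM over 1; Kdm6b and Hdac1 are dark and large in all sets, while Brd3, Hdac7, Kdm2b and most Kat genes are small in both AG rows and larger in both GHA501A rows.

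The demethylases held both the highest and the lowest member. Kdm6b, which removes the methyl mark placed by Polycomb, had the highest mean level of the 62 (7.02 on the log2 scale). Its mean TPM was 130 in AG untreated, 83.7 in AG treated, 183.3 in GHA501A untreated and 138.03 in GHA501A treated cells, so that both treated sets lay below the untreated set of their series, and both GHA501A sets lay above both AG sets without passing the test (adjusted p = 0.241). Single cells ranged from 3.41 to 489 TPM in AG untreated cells (median 102.2) and from 18.4 to 547 in GHA501A treated cells (median 108). Kdm5a followed with mean TPM of 105, 71.9, 45.3 and 58.1 in the same order of sets, and the related Kdm5b, which removes methyl groups that mark active promoters, had 46.5, 48.6, 34.5 and 29.7. For both genes the 2 AG sets were above the 2 GHA501A sets, without passing the test. Kdm7a, a demethylase with a reader domain, had 44.4, 26.6, 23.6 and 33.8, which overlapped between the series. Kdm6a, the X-linked relative of Kdm6b, was lower, with 22.3, 17.3, 10.2 and 10.998.

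Among the Kmt and Setd genes, Kmt2e was highest, at a mean TPM of 129, 66.7, 45.1 and 50.004 in AG untreated, AG treated, GHA501A untreated and GHA501A treated cells. One AG untreated cell held 1752 TPM, and the medians were closer to each other, at 57.1, 55.9, 29.8 and 30.005. Setd2, which methylates the bodies of transcribed genes, led the Setd group with 45.2, 28.2, 27.2 and 30.04. Setd3, which is known as an actin methyltransferase, was over 1 TPM in 72.7%, 79.7%, 73.2% and 49.3% of the cells, with mean TPM of 20.4, 11.1, 15.1 and 9.10. For Setd3 the treated sets were thus below the untreated ones in both series, without passing the limma test (difference -0.75 ± 0.33, SE, adjusted p = 0.998).

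Of the deacetylases Hdac1, a catalytic subunit of the main nuclear deacetylase complexes, was the highest, with mean TPM of 134.02, 137.5, 90.6 and 110. It was the most abundant member in 71 of the 270 cells, more often than Kdm6b (53 cells) or Brd9 (41 cells). Its partner Hdac2 had 73.4, 43.8, 25.99 and 52.4. Hdac8 and Hdac11 were the least detected, Hdac11 in 18.2%, 20.3%, 4.23% and 1.45% of the cells. The median level of the acetyltransferase family was 0.19 and 0.25 in AG untreated and treated cells, where 5 of its 7 genes were listed near 0, and 3.81 and 4.25 in GHA501A. In GHA501A it was above that of the Kmt family, at 2.87 and 3.604. Only Kat8 and Kat6a were over 1 TPM in more than 40% of the cells of each set. Kat8, the acetyltransferase of the MOF complexes, had mean TPM of 23.3, 54.4, 36.8 and 26.4, with AG treated highest and AG untreated lowest. A single AG treated cell held 1921 TPM, and the medians were closer to each other, at 3.48, 5.86, 4.16 and 3.59.

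Among the readers and remodellers, Brd9, Brd7, Baz1b and Chd1 differed less between the sets than Brd3 and Baz2a, which are given below. Brd9, a bromodomain subunit of a SWI/SNF complex, had mean TPM of 83.3, 111.4, 87.1 and 105, and Brd7, a subunit of a related complex, had 60.9, 59.4, 38.6 and 56.5. Baz1b, a partner of the nucleosome-sliding enzyme Smarca5, was the highest Baz gene with 48.3, 53.5, 50.6 and 78.6, and Chd1, which travels with elongating polymerase, had 53.1, 53.4, 42.9 and 42.9. Brd9 and Baz1b overlapped between the series, while Brd7 and Chd1 were lower in GHA501A without passing the test.

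Differences between the series were larger than those with treatment. In a limma fit on the 4 set levels with treatment as a block, 3580 of 12355 genes (29%) differed between GHA501A and AG at an adjusted p under 0.05 and an absolute log2 difference over 0.5. Among the members it was 13 of 61 (21.3%). Of these, 11 were higher in GHA501A (18%, against 18.2% of all genes) and 2 were lower (3.28%, against 10.8%), so the members' share of calls lay near or below that of all genes. The higher genes included the 9 listed near 0 in AG, and Hdac4. With the genes that are near 0 in 1 series left out of the fit and the adjustment, an alternative added after seeing the data, Kmt2c and Kdm1b were still called and Hdac4 was not, and the count was 3 of 52 members against 17.7% of the 11008 genes left.

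Brd3, a bromodomain protein that binds acetylated histones, was over 1 TPM in 4 of 66 and 0 of 64 AG cells, but in 67 of 71 and 65 of 69 GHA501A cells, where the mean TPM was 26.4 and 28.4. A count of 0 of 64 allows a share of up to 5.66% by the 95% Wilson interval, which covers the sampling of cells only. Hdac4, a deacetylase that shuttles between nucleus and cytoplasm, had mean TPM of 11.8 and 4.01 in AG and of 28.2 and 37.2 in GHA501A, a difference of 2.06 ± 0.52 (SE, adjusted p = 0.0474). It was over 1 TPM in 65.2% and 64.1% of AG cells and in every GHA501A cell.

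The acetyltransferases near 0 in AG differed in how widely they were seen in GHA501A. Kat7, which acetylates histones at replication origins, was over 1 TPM in 4.55% and 4.69% of AG untreated and treated cells and in 78.9% and 72.5% of GHA501A cells. Kat2b, a co-activator known as PCAF, was over 1 TPM in 1.52% and 1.56% against 71.8% and 53.6%. For Kat5, the catalytic subunit of the Tip60 complex, it was 4.55% and 10.9% against 38.03% and 31.9%, and although its mean TPM reached 29.3 and 26.3 in GHA501A, the median GHA501A cell was at 0 in both sets. Kdm4c had 10.6% and 9.38% against 39.4% and 39.1%, Kat14 had 1.52% and 3.12% against 32.4% and 39.1%, and Hdac7 had 0% and 1.56% against 66.2% and 65.2%. Kdm2b and Kat6b were over 1 TPM in 0 of the 130 AG cells, and in 40.8% and 42.03% (Kdm2b) and 38.03% and 31.9% (Kat6b) of GHA501A untreated and treated cells. In the 21 GHA501A cells with keratinocyte markers the share was 95.2% for Brd3, 76.2% for Kat7, 71.4% for Hdac7, 66.7% for Kat2b, 47.6% for Kat5 and Kdm2b, 38.1% for Kat14, 23.8% for Kdm4c and 19.05% for Kat6b. These genes were thus also seen in GHA501A cells with keratinocyte markers. Counting all members, both GHA501A set levels lay above both AG levels in 16 of 61 (26.2%, against 36.7% of all genes) and below both in 20 (32.8%, against 32.9%).

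**Figure D2:**
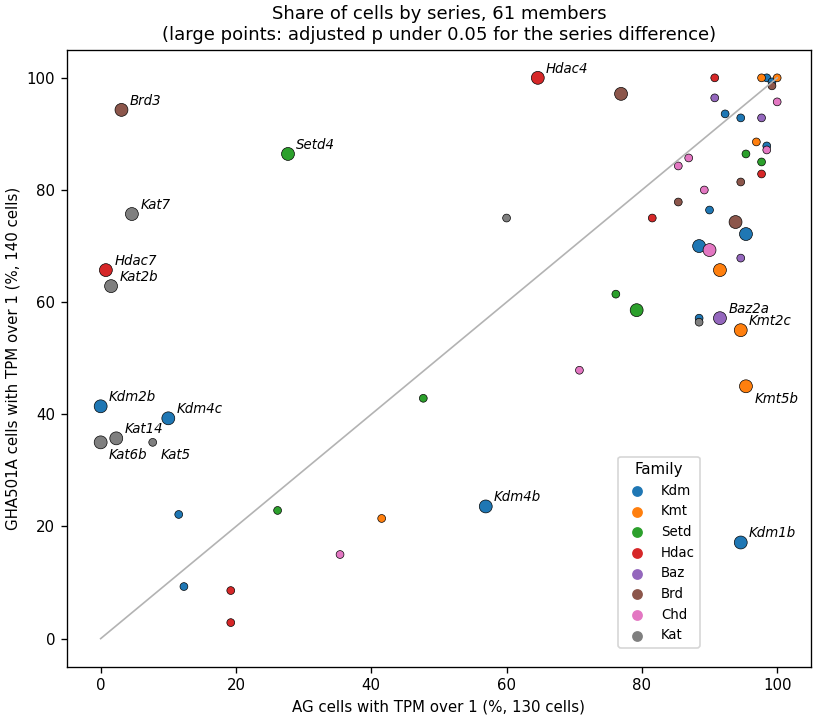
Percentage of cells with TPM over 1 for each of the 61 members that passed the filter, in AG (x axis) and GHA501A (y axis), coloured by family. Large points passed the limma test of the series difference in share (adjusted p under 0.05); Brd3, Kat7, Hdac7, Kat2b, Kdm2b, Kdm4c, Kat5, Kat14 and Kat6b sit at the left edge, and Kdm1b stands alone at the lower right with 94.6% in AG and 17.1% in GHA501A.

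The largest fall was in Kdm1b, a flavin-dependent demethylase known for its role in setting imprints in oocytes. It was over 1 TPM in 63 of 66 and 60 of 64 AG untreated and treated cells, and in 10 of 71 and 14 of 69 GHA501A cells. Among the 21 GHA501A cells with keratinocyte markers the share was 23.8%, at 0% of 9 untreated and 41.7% of 12 treated cells. Over all cells mean TPM was 52.4 and 45.5 in AG and 3.48 and 5.80 in GHA501A, a difference of -3.17 ± 0.38 (SE, adjusted p = 0.00568). In keratinocyte-marker cells alone it was 52.4 and 45.9 in AG and 0.238 and 11.2 in GHA501A, without passing the limma test (adjusted p = 0.108). Kdm1b shares exon bases with the gene Dek, and the part of this overlap was not tested. Kmt2c, which methylates histones at enhancers, also fell over all cells, from 22.2 and 30.9 to 5.66 and 11.2 (difference -1.60 ± 0.34, SE, adjusted p = 0.0296). Its share of cells went from 90.9% and 98.4% to 56.3% and 53.6%, with 76.2% in the GHA501A keratinocyte-marker cells. In keratinocyte-marker cells alone its mean TPM was 22.2 and 31.5 in AG untreated and treated cells. In GHA501A it was 2.72 (9 untreated cells) and 40.05 (12 treated cells), so treated cells showed no fall. Baz2a, a subunit of the nucleolar remodelling complex, had mean TPM of 37.8 and 20.6 in AG and of 8.74 and 9.65 in GHA501A. Its difference of -1.51 ± 0.40 (SE) missed the threshold with an adjusted p of 0.0524. In keratinocyte-marker cells Baz2a had 37.8 and 20.9 in AG untreated and treated cells and 7.86 and 26.5 in GHA501A, so it too was not lower in treated cells. Kmt2d, the close relative of Kmt2c, had 35.4 and 19.3 in AG and 46.3 and 36.9 in GHA501A, a difference of 0.64 ± 0.35 (SE, adjusted p = 0.241).

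Between the series, the members' median difference was small and changed direction with treatment. The median member difference between GHA501A and AG was -0.19 on the log2 scale, against 0.01 for all genes, and without the 9 genes near 0 in AG it was -0.29, with 39 of the remaining 52 members lower in GHA501A, against 49.4% of all 12355 genes. The median over all 61 was -0.41 between the untreated sets and 0.10 between the treated sets. How the cells are averaged also mattered. With log2(TPM + 1) averaged over the cells instead, which gives less weight to single high cells, 37 of 61 members were called, 13 higher (21.4% of all genes) and 24 lower (23.4% of all genes), against 44.8% of all genes in either direction, and the median of all genes moved to -0.11 while that of the members moved to -0.45. Genes called lower in this form but not by the log of the mean included Kdm5b, Kdm6a, Kdm7a, Kmt2e, Setd2, Brd7, Brd9, Baz2a and Chd4. When only cells with keratinocyte markers were used, Brd3, Kat5 and Kat7 remained called and 0 members were called lower, with 9.85% of all genes called (7.12% higher and 2.73% lower). GHA501A then held 9 untreated and 12 treated cells, so that this comparison rests on few cells.

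More members were called lower in GHA501A for the share of cells than for the level. In the limma fit of the percentage of cells over 1 TPM, 22 of 61 members (36.1%) were called against 27.2% of all genes. Of these 11 were higher in GHA501A (18%, against 14.3%) and 11 lower (18%, against 12.9%). The higher ones included 8 of the 9 near 0 in AG, all but Kat5, and also Setd4 and Hdac4. Setd4, a lysine methyltransferase of little-known function, was over 1 TPM in 27.3% and 28.1% of AG cells and in 87.3% and 85.5% of GHA501A cells. The lower ones were Kdm1a, Kdm1b, Kdm3b, Kdm4b, Kmt2a, Kmt2c, Kmt5b, Setd7, Baz2a, Brd1 and Chd6. Kmt5b, which places a methyl mark of silent chromatin, fell from 95.5% and 95.3% to 40.8% and 49.3%, with 71.4% in the GHA501A keratinocyte-marker cells (adjusted p = 0.0221), although its level differed by only -0.10 ± 0.37 (SE, adjusted p = 0.853). Mean TPM was 7.48, 4.26, 5.04 and 5.38, so that in GHA501A a similar total was spread over fewer cells. In the keratinocyte-marker cells 0 of 61 members and 0 of all genes were called for share, with 21 members and 26.7% of all genes at an unadjusted p under 0.05. With any TPM over 0 counted, 11 members were higher and 1 was lower. The share of all genes called in that form is not given, so these counts are not read as a result about the members.

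Treatment with 4OHT gave no member past the threshold. In the fit with series as a block, 0 of 12355 genes (0.0%) were called for level and 0 of 61 members. At an unadjusted p under 0.05 there were 459 genes (3.72%) and 2 members, Setd6 and Kmt2b. With 2 sets per condition, a p over the threshold does not show that treatment had no effect. For the share of cells 0 genes (0.0%) and 0 members were called, with 2.81% of all genes and 1 member at an unadjusted p under 0.05.

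The members that differed most with treatment in the same direction in both series are given as values. Setd6, which methylates the NF-kappaB subunit RelA, had mean TPM of 10.3 and 4.19 in AG untreated and treated cells and of 12.0 and 3.50 in GHA501A, so that both treated sets were below both untreated sets (difference -1.32 ± 0.34, SE, unadjusted p = 0.0138, adjusted p = 0.998). It was over 1 TPM in 28.8% and 23.4% of AG cells and 26.8% and 18.8% of GHA501A cells, and the median cell was at 0 throughout, so these means rest on a minority of cells. Kmt2b had 6.796 and 2.34 in AG and 4.86 and 2.30 in GHA501A (difference -1.02 ± 0.34, SE). Kdm4a had 3.53 and 0.165 in AG and 3.82 and 2.44 in GHA501A (difference -1.22 ± 0.48, SE). In the other direction Kmt2c had 22.2 and 30.9 in AG and 5.66 and 11.2 in GHA501A (difference 0.67 ± 0.34, SE). Setd5 had 25.3 and 39.7 in AG and 20.1 and 26.6 in GHA501A (difference 0.51 ± 0.33, SE). A single AG treated cell held 1260 TPM of Setd5. Median TPM of Setd5 was 15.8 and 16.6 in AG but 14.8 and 13.6 in GHA501A, so the medians did not share the direction of the means. Kat14 had 5.86 and 11.6 in GHA501A. In AG it was near 0, at 0.0717 and 0.188, so its direction there rests on values that can be failed estimates. Of these 6 genes only Setd6 and Kmt2b had an unadjusted p under 0.05.

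As a group the members went opposite ways in the 2 series. In AG 42 of 61 members were lower in treated cells, against 56.5% of all genes, and the median difference was -0.20. In GHA501A 42 of 61 were higher and the median was 0.19. There 19 members were lower, against 42.8% of all genes. All genes shifted the same way by less, with medians of -0.07 and 0.06. In all, 13 members were higher in both series (21.3%, against 23.5% of all genes), 13 were lower in both (21.3%, against 23.8%) and 35 went opposite ways (57.4%, against 50.3%). Kat8 was among the last, at a mean TPM of 23.3 and 54.4 in AG but 36.8 and 26.4 in GHA501A. Its AG treated mean holds a single cell at 1921 TPM, and its medians were 3.48 and 5.86 in AG and 4.16 and 3.59 in GHA501A. Hdac2 was also among them, at 73.4 and 43.8 in AG but 25.99 and 52.4 in GHA501A. The medians of Hdac2 were 46.4 and 32.1 in AG and 18.2 and 18.1 in GHA501A. Each series holds 1 set per treatment, so the difference between the series was not tested.

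**Figure D3:**
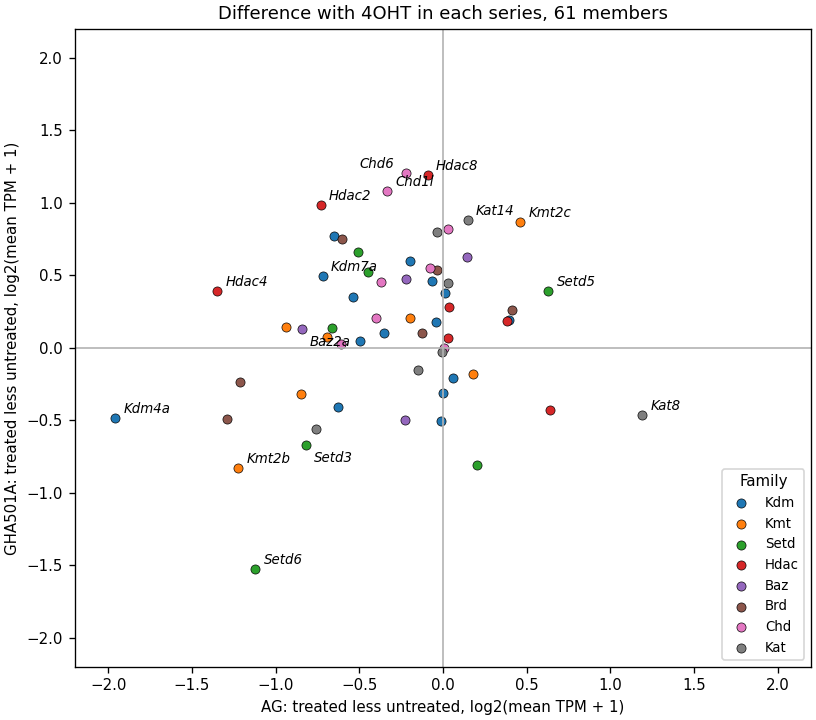
Difference between treated and untreated sets in log2(mean TPM + 1) for each of the 61 members, in AG (x axis) and in GHA501A (y axis), coloured by family. Setd6, Kmt2b and Kdm4a lie in the lower left, lower in treated cells of both series, and Kmt2c, Setd5 and Kat14 in the upper right; the upper left, lower in AG treated and higher in GHA501A treated cells, holds more points than any other quadrant.

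Cell-to-cell spread was measured as the SD of log2(TPM + 1) over the cells of a set. The median member SD was 1.59, 1.4996, 1.77 and 1.90 in AG untreated, AG treated, GHA501A untreated and GHA501A treated cells, against 1.92, 1.78, 1.87 and 1.97 for all 10707 genes over 1 TPM in at least 10% of cells. As the SD depends on the level, the lowess trend of SD on mean log2(TPM + 1) was subtracted within each set. Only 11, 13, 13 and 17 of 61 members lay above this trend, against 47.5%, 46.5%, 49.2% and 50.2% of all genes. Most members were thus steadier between cells than genes of the same level in all 4 sets.

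Transcript length moved with this. The median exon length of the members was 8383 bases against 4444 for all genes, and 53 of the 61 were longer than that median. Over the 61 members Pearson's r of log2 exon length with spread less trend was -0.66, and over the 10615 genes with a length it was -0.46, a description across genes that share the same libraries. Genes were also split by length into 3 classes of equal size. In the longest class the median spread less trend was -0.49 for the 40 members there and -0.18 for all 3538 genes. In the middle class it was -0.01 for 18 members and 0.01 for all genes, and in the shortest it was 0.20 for 3 members and 0.19 for all genes. The lower spread was therefore seen among the long members, and the part of length in it was not tested further.

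By the mean of spread less trend over the 4 sets the steadiest member was Kmt2d, whose enzyme places methyl marks at enhancers and which lies at chr15:98831669-98871204 on GRCm38. Its SD was 1.31, 0.99, 0.73 and 1.03 in the 4 sets, and its spread less trend was -1.03, -1.202, -1.33 and -1.26. It was over 1 TPM in 96.97%, 98.4%, 100% and 100% of the cells. Kmt5b had an SD of 1.06 and 0.70 in AG and of 1.51 and 1.45 in GHA501A. Its spread less trend was -1.23 and -1.43 in AG but -0.39 and -0.56 in GHA501A, where Kmt2e, at -0.96 and -0.75, was the steadier. The SD of Kmt2e was 1.43, 1.199, 1.16 and 1.54. Exon lengths were 19931 bases for Kmt2d, among the longest of the members. The most variable by the same mean was Brd9, with an SD of 2.71, 2.70, 3.07 and 2.85. Its median TPM was 34.7 and 59.95 in AG and 7.55 and 14.7 in GHA501A, and single GHA501A untreated cells reached 1973. Kat5 and Kat8 followed, Kat8 with an SD of 2.56, 2.75, 2.55 and 2.34.

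**Figure D4:**
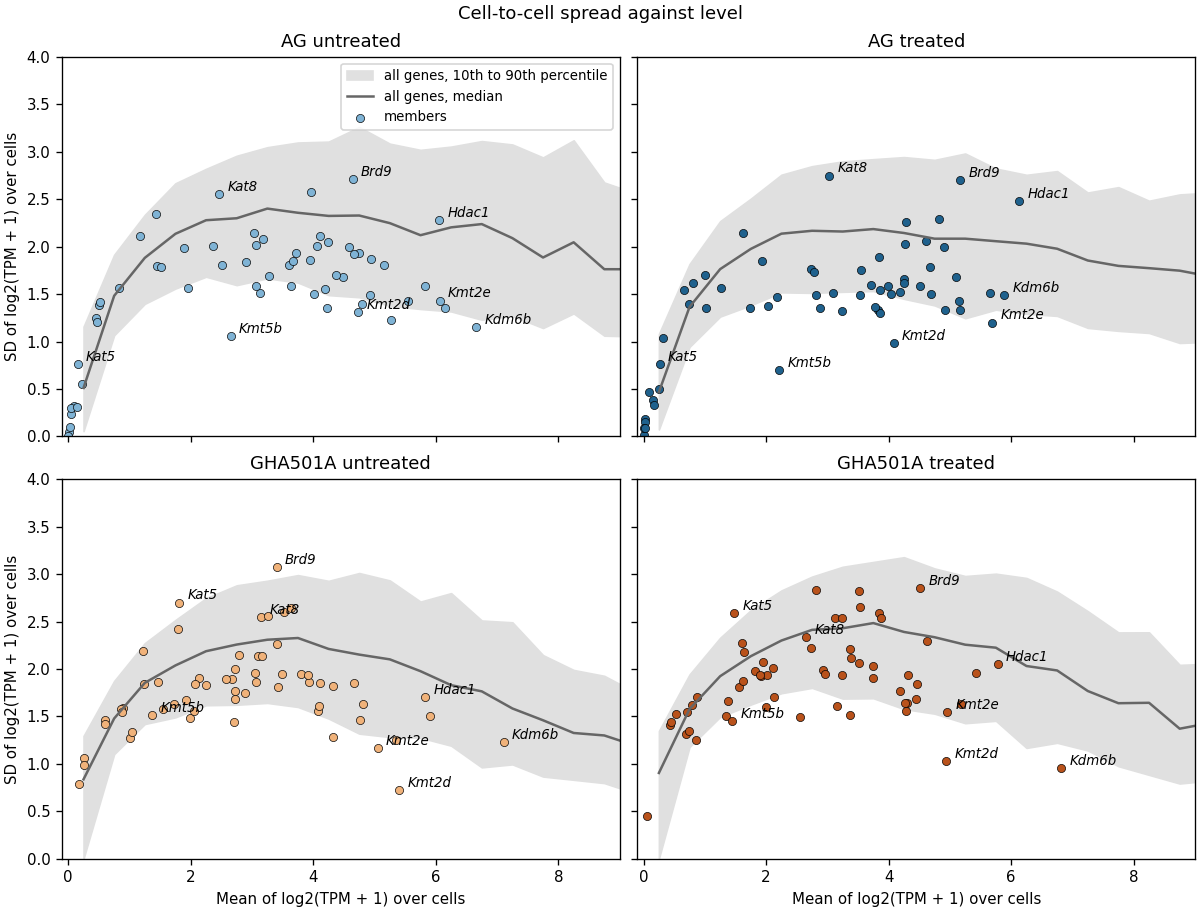
SD of log2(TPM + 1) over cells (y axis) against its mean (x axis) for the 61 members (points) in each of the 4 library sets, with the median (line) and the 10th to 90th percentile (band) of all 10707 genes in level bins of 50 genes or more. Most members lie under the line; Kmt2d lies at or under the band and Brd9 above the line in all sets.

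Between the series, spread differed for 15 of 61 members (24.6%, limma, adjusted p under 0.05), against 30.6% of all genes. Of these 13 were higher in GHA501A (21.3%, against 18.3% of all genes) and 2 were lower (3.28%, against 12.3%). The 13 included the 9 genes near 0 in AG, whose SD there ran from 0 in Hdac7 to 0.76 in Kat5. Values near 0 hold the SD low, so the calls of these 9 are not read as a result about spread. The others were Kdm1a, Kdm4a, Brd7 and Hdac2. Hdac2 went from an SD of 1.42 and 1.79 in AG to 1.95 and 2.59 in GHA501A (adjusted p = 0.0305), and Kdm1a, which removes methyl groups from active promoters, from 1.87 and 1.68 to 2.27 and 2.54 (adjusted p = 0.0417). The 2 lower ones were Chd1l and Hdac11, both detected in fewer cells of GHA501A. With the trend on level subtracted, 12 members were called against 20.7% of all genes, 8 of them higher (against 10.4%) and 4 lower (against 10.3%). With keratinocyte-marker cells only, 5 were called, each higher, against 7.43% of all genes (5.02% higher and 2.41% lower). With treatment, 0 members were called for spread against 4 genes in all (0.0374%, of which 0.0280% higher and 0.00934% lower), with 3 members at an unadjusted p under 0.05.

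For 45 of the 61 members the promoter was in the RefSeq table used (GRCm38.p6). The 250 bases before the start first listed for each gene were compared with those of 9651 genes. A start listed first can lie inside the gene. The members' windows held a median of 20 CpG dinucleotides, the sites of DNA methylation, against 15 for all genes, with a range of 0 to 56. The letters GGGCGG, a GC box, were found on either strand in 30 of 45 members (66.7%) and in 57.2% of all windows, and TATAAA in 2 members (4.44%) and 6.87% of all. Across the 45 members the CpG number had a Pearson's r of 0.23 with the share of cells over 1 TPM, close to the 0.24 over all genes. Below are windows that show this range, read 5′ to 3′ on the strand of the gene, with each CpG in capitals. Kmt2d (chr15:98871206-98871455, minus strand), the steadiest member by mean spread less trend, has 26 CpG. Kmt2c (chr5:25498784-25499033, minus strand), which was lower in GHA501A over all cells, has 48. Hdac4 (chr1:92180342-92180591, minus strand), which was higher in GHA501A over all cells, has 23. Kdm4c (chr4:74242247-74242496, plus strand), which was near 0 in AG, has 0.
Kmt2d: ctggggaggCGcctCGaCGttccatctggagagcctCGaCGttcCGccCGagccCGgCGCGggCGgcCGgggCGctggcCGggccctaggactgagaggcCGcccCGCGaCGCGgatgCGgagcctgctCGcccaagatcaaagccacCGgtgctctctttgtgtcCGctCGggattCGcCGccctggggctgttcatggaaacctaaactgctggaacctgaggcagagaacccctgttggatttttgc
Kmt2c: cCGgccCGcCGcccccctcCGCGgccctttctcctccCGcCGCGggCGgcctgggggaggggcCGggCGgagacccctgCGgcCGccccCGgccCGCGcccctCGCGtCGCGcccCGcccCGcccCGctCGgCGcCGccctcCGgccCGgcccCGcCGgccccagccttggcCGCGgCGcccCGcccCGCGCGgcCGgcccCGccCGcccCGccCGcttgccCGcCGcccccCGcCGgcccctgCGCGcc
Hdac4: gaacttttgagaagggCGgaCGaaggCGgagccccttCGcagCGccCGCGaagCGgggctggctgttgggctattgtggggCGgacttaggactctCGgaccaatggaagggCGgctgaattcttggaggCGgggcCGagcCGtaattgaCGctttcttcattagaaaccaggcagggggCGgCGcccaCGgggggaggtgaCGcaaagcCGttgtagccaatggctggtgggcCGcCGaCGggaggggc
Kdm4c: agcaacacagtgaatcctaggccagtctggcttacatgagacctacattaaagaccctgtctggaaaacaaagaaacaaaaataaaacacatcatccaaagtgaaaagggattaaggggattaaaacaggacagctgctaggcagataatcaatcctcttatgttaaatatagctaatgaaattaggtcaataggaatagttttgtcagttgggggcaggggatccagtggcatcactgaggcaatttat
Setd5 also held 0 CpG in its window but was over 1 TPM in 90.7% of the cells, and Brd3, near 0 in AG, held 37. The windows of Setd5, Brd3 and Hdac4 lie inside the annotated gene and not before its outermost start. Counts of the members near 0 in AG ran from 0 in Kdm4c and 6 in Kat2b to 27 in Kat14 and Kat6b and 37 in Brd3. The part of CpG number in the values near 0 was not tested.

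The summed TPM of the 62 members was similar between sets. The median cell held 1565 TPM in AG untreated, 1428 in AG treated, 1347 in GHA501A untreated and 1365 in GHA501A treated cells. Quartiles were 1308 and 2605, 1220 and 1672, 1140 and 1643, and 1178 and 2018, so the sets overlapped widely, with the upper quartile of AG untreated cells the highest. A cell had a median of 41, 43, 41 and 40 members over 1 TPM, with a minimum of 20 and a maximum of 51. The number of members detected followed the number of genes detected, with Pearson's r of 0.66 to 0.87 over the cells of a set, whereas r of the log2 summed TPM with it was -0.57 and -0.26 in AG and 0.28 and 0.19 in GHA501A.

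**Figure D5:**
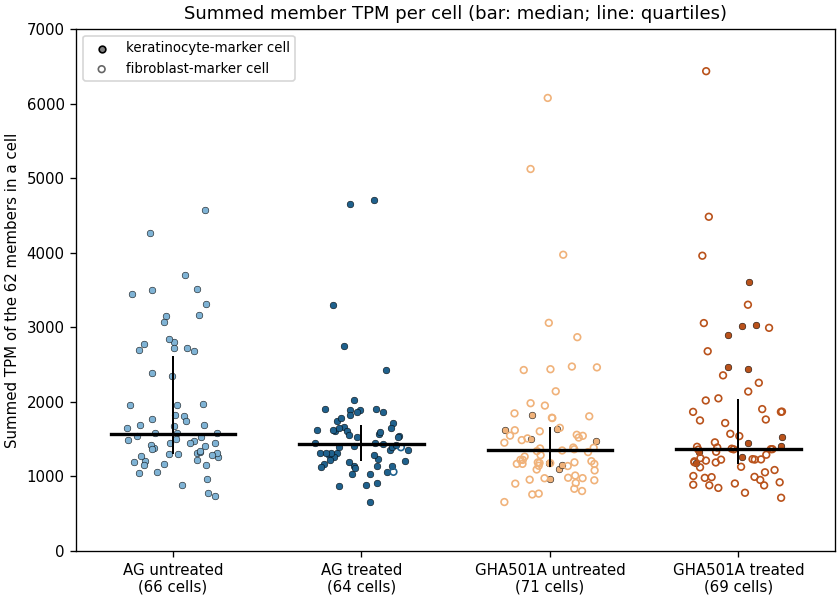
Summed TPM of the 62 members in each cell (points) by library set, with the median (bar) and quartiles (line). Filled points are cells with higher keratinocyte than fibroblast marker scores and open points the reverse; medians lie between 1347 and 1565 TPM, and AG untreated cells have the widest quartiles.

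Over single cells, Kdm5b was the member whose level fell most regularly as the cycling score rose, with Pearson's r of -0.25, -0.57, -0.29 and -0.44 in AG untreated, AG treated, GHA501A untreated and GHA501A treated cells. Baz1b went the other way with r of 0.36, 0.20, 0.19 and 0.25, and so did Kmt5a, which methylates histones during mitosis, with 0.22, 0.14, 0.18 and 0.24. These are descriptions over 64 to 71 cells of 1 library set each, and depth per cell is unknown. Within GHA501A, fibroblast-marker and keratinocyte-marker cells differed in the same direction in both treatments for 28 of 61 members (21 higher and 7 lower in fibroblast-marker cells) and in opposite directions for 33, while 56.9% of all genes had the same direction.

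A list of 60 other chromatin genes was set beside the members, of which 49 were in the table and passed the filter. With treatment 0 were called. Between the series 18 were higher in GHA501A (36.7%, against 18.2% of all genes) and 1 was lower (2.04%, against 10.8%), and 10 of the 49 were near 0 in AG (20.4%, against 7.76%). Among them were Dnmt1, the maintenance DNA methyltransferase, at mean TPM of 0 and 0.00500 in AG and of 30.1 and 26.2 in GHA501A, and the Polycomb genes Ezh2 and Suz12, at 0.115 and 0.0115 and at 0.153 and 0.119 in AG and at 28.1 and 29.4 and at 71.3 and 64.6 in GHA501A. The 1 lower was Ezh1, the other Polycomb methyltransferase, with 21.5 and 18.5 in AG and 1.84 and 4.70 in GHA501A (difference -2.38, adjusted p = 0.0189). The median difference of the list was 0.66 against 0.01 for all genes and -0.19 for the members.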

How the data were processed

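Single mouse keratinocytes were profiled with SMART-Seq v4 on C1 chips, without molecular identifiers, and capture sites with doublets or dead cells were left out by imaging. After trimming, the authors mapped with Tophat (GRCm38), kept uniquely placed reads, counted them per gene with featureCounts and deposited TPM, which sum to 1000000 in each cell, so depth and the precision of low values are unknown. The submitters' processing notes also list FastQC and cutadapt, and versions were not given in the sources used here. Of 294 columns, 16 matched no label and were not used. Cells were grouped by library series and treatment label. A keratinocyte-marker cell has a higher mean log2(TPM + 1) over the keratinocyte than over the fibroblast markers. Genes with TPM over 1 in more than 5 of 270 cells were kept, 12355 in all, and 10707 in at least 10% of cells for spread.

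Levels (pseudocount 1), shares and SDs of the 4 sets were fitted in limma 3.58.1 (R 4.3.3; two-sided, Benjamini-Hochberg over all genes) with series and treatment as terms, which leaves 1 residual degree of freedom. The rest of the precision comes from the prior variance shared across genes, and in the spread fit the prior degrees of freedom were infinite. The steps were tested on simulated data with 200 changed genes. At the residual spread of these sets, a true log2 change of 2 was recovered in 0% of them for treatment and for series. A change of 6 was recovered in 98.5% for treatment and 99.5% for series. With cells drawn, a share change of 40 points was recovered in 0% for both. A spread change of 1 was recovered in 74% for treatment and 0% for series. The series fits of these data called 3580 genes for level, 3362 for share and 3273 for spread. These are far more than the 200 genes changed in the simulation. The Benjamini-Hochberg threshold was therefore less strict in those fits, and the simulated recovery for series does not carry over to them. Python 3.11.15 with numpy, pandas and scipy was used otherwise, gene positions came from GENCODE release M21 and promoters from RefSeq. The alternatives were another pseudocount, other filters, mean log values, a trended prior, no block, other detection limits and measures of spread, other sets of cells, and leaving out each set. The members and lists were chosen with earlier results of these data known. Genes named with values are those named by the study, the highest of each family, the largest series and treatment differences, the highest and lowest level-adjusted spreads and the members under the filter; others are named as examples after their values were seen. The values of 1 member are not reported here.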

Additional observations from a re-analysis of the deposited data

Results flagged for a closer look

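The treated less untreated difference of the members had opposite signs in the 2 series. The median over 61 members was -0.199 on the log2 scale in AG and 0.187 in GHA501A, where all genes had -0.0669 and 0.0562. Each series holds 1 set per treatment, so this difference between the series was not tested.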

How the results depend on the processing

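Calls of the series difference depended on the processing, and those of treatment stayed at 0 members for level, share and spread in each alternative run. For level, 13 members were called (29% of all genes), 37 with the mean of log2(TPM + 1) (44.8%) and 3 with keratinocyte-marker cells only (9.85%). With genes low in 1 series left out 3 were called, and between 11 and 16 in the others. For share, 22 members (27.2% of all genes) became 12 with TPM over 0 and 0 with keratinocyte-marker cells only (0.0%). For spread, 15 (30.6% of all genes) became 7 with the coefficient of variation and 5 with keratinocyte-marker cells only (7.43%). The other chromatin genes gave 19 calls, 33 with the mean of log2(TPM + 1) and 9 with keratinocyte-marker cells only, beside the same shares of all genes for level. Counts printed without a share of all genes are not read as a result about the members. The median treated difference of the members moved from 0.00437 to 0.284 with keratinocyte-marker cells only, and the mean of the set medians of summed TPM from 1426 to 1615. With no replicate block, 16, 31 and 16 members were called for level, share and spread between the series, and 0 with treatment. With 1 set left out in turn, no residual degrees of freedom remain and only values are given. The median treated difference then ranged from -0.199 to 0.187, and the median series difference from -0.415 to 0.101. Including the 8 conflicting cells by label or by library name changed no count by more than 1.5 times. Depth per cell is unknown, so the limit for low members cannot be given, and with 2 sets per condition a miss of the threshold says little.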
